A study of Mus musculus with 12 samples.

Results

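Th17 cells differentiated in culture were compared with naive CD4+ T cells, the type of cell they arise from, over 6 of the 12 arrays of the series. The arrays were chosen by their titles alone, 3 for the culture and 3 for naive cells, and no measured value entered the choice. The cultured cells were CD4+ T cells of B6.2d2 mice turned into Th17 cells in vitro. The naive cells were CD4+ T cells of the spleen of the same strain, so both groups carry the strain's transgenic T cell receptor, which recognises myelin oligodendrocyte glycoprotein (MOG). The series text gives the replicates as coming from 3 independent experiments. The cytokines and length of the culture, the age and sex of the mice and the purity of either population are not given in the labels. A single transgenic receptor also limits both groups as a model of a normal, diverse repertoire. The other 6 arrays, of T cells from the central nervous system, entered the fit only to share its estimate of the spread.

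Th17 cells are helper T cells that secrete interleukin-17A and interleukin-17F, and they are known from inflammation at barriers and in the nervous system. They arise when a naive cell is stimulated through its T cell receptor in the presence of interleukin-6 and transforming growth factor beta, and interleukin-23 sustains them. A naive cell is a small, resting lymphocyte that circulates between blood and lymph nodes. Leaving that state takes growth, division and a change from respiration towards glycolysis with active lipid synthesis, beside the new cytokine genes.

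RNA was measured on 1-colour Agilent arrays. Each level below is the log2 processed signal of a gene's probe minus the 75th percentile of its array, so 0 is the level of a probe at that percentile, and levels of different probes are not compared with each other. Values are given in the order of replicates 1, 2 and 3. A difference is culture minus naive in log2 units with the standard error (SE) of a limma fit, and 1 unit is a doubling. A gene is said to have risen or fallen if its Benjamini-Hochberg adjusted p was under 0.05. With 3 arrays per group the precision of each value is limited by their number. The p-values set each difference against the spread between these samples within groups, estimated over all 12 arrays.

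Of 18629 genes tested, 3568 (19.2%) rose and 3967 (21.3%) fell, so 40.4% passed in either direction, and the median difference over all genes was −0.11. On all 6 arrays 15667 of these genes were well above background. Groups of 3 arrays did not overlap for 50.3% of the genes. Against these shares every count of list members below has to be read. At 16-fold or more 469 genes were higher and 217 lower. A total of 443 genes were below background on all naive arrays and above it on all cultured ones, and 204 genes showed the reverse. The gene lists used below name 859 genes, of which 826 were tested.

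Culture replicate 3 stood apart from the other cultured arrays, as shown for each array by the plot of genes that lie outside their group. Over all genes it correlated at 0.963 and 0.954 with replicates 1 and 2, which correlated with each other at 0.985. Genes were counted only where the other 2 arrays of the group lay within 1 log2 unit of each other. Among these it lay more than 2-fold above both others of its group for 1136 genes and more than 2-fold below both for 1139. The other 5 arrays had at most 607 in either direction. For culture replicates 1 and 2 the others include replicate 3, so their counts are not on an equal footing with its own. The first principal component of the 6 arrays, which separated the groups, held 72.9% of the variance, and the second, with culture replicate 3 at its end, held 13.1%. Without that array 7439 genes (39.9%; 19.2% higher and 20.8% lower) were called, of which 6511 were also called with it, and none changed sides. The median SD of a gene was 0.349 in culture and 0.246 in naive cells. It was 0.259 and 0.208 in the 2 groups from the central nervous system, so the shared estimate lies below the spread of the cultures.

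**Figure D1:**
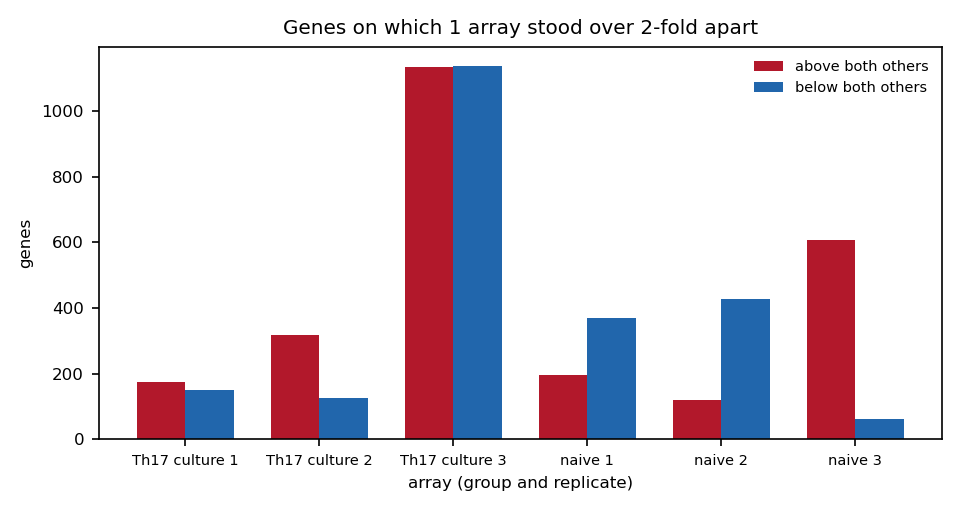
Number of genes (vertical axis) whose level on an array lies more than 2-fold above (red) or below (blue) both other arrays of its group, for the 3 cultured Th17 arrays and the 3 naive arrays. Only genes on which those other 2 arrays lie within 1 log2 unit of each other are counted. Culture replicate 3 has 1136 genes above and 1139 below, and naive replicate 3 has 607 above.

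The naive arrays also differed among themselves. The Y-linked gene Eif2s3y lay at 2.74, 2.97 and 3.34 in culture and at 3.11, −7.74 and −7.52 in naive cells, and Ddx3y, Kdm5d and Uty had the same order. Xist, which is transcribed from the inactive X chromosome, lay at −5.32, −4.91 and −7.75 in culture and at −7.39, 0.25 and 0.25 in naive cells. Naive replicate 1 was thus like the 3 cultured arrays in these 5 genes, which were chosen after their values were seen, and naive replicates 2 and 3 were not. The same array was the highest naive one in immediate early genes and by far the lowest in haemoglobin, with Hbb-bt at −4.87, 0.39 and 0.51 in the 3 naive samples. Each slide held 1 array of each group under the same replicate number, so the difference within slide 1 sets 2 arrays that are alike in these 5 genes against each other. List medians are therefore also given within slides. The part of any of these differences in the results was not tested beyond those values.

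The 4 marker genes separated the groups. Il17a, the gene of interleukin-17A, lay at 5.36, 5.45 and 2.30 in culture, against −4.96, −6.27 and −5.89 in naive cells, where 1 of 3 arrays was above background. The difference was 10.08 ± 0.80 (adjusted p = 8.89e-06). Il17f, its neighbour and partner, lay at 4.67, 6.41 and 3.35 in culture, against −3.45, −5.26 and −5.06 in naive cells, a difference of 9.40 ± 0.79. For both cytokines culture replicate 3 was the lowest cultured array, yet far above every naive one. Dtx1, a ubiquitin ligase gene of the Notch pathway that is known to be high in resting T cells, lay at −5.24, −4.32 and −3.51 in culture, against 4.33, 4.10 and 4.28 in naive cells (−8.59 ± 0.46). Ccr9, a chemokine receptor gene of gut homing, lay at −5.88, −5.45 and −5.22 in culture, against 2.06, 2.50 and 1.81 in naive cells (−7.64 ± 0.45). In none of the 4 did the groups overlap. On the mm9 assembly of the array files, the Il17a probe lies at chr1:20724404-20724463 on the plus strand, the Il17f probe spans chr1:20768074-20769419 on the minus strand, the Dtx1 probe lies at chr5:121130278-121130337 on the minus strand and the Ccr9 probe at chr9:123690334-123690393 on the plus strand. Whether these positions are coding or untranslated was not analysed here.

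**Figure D2:**
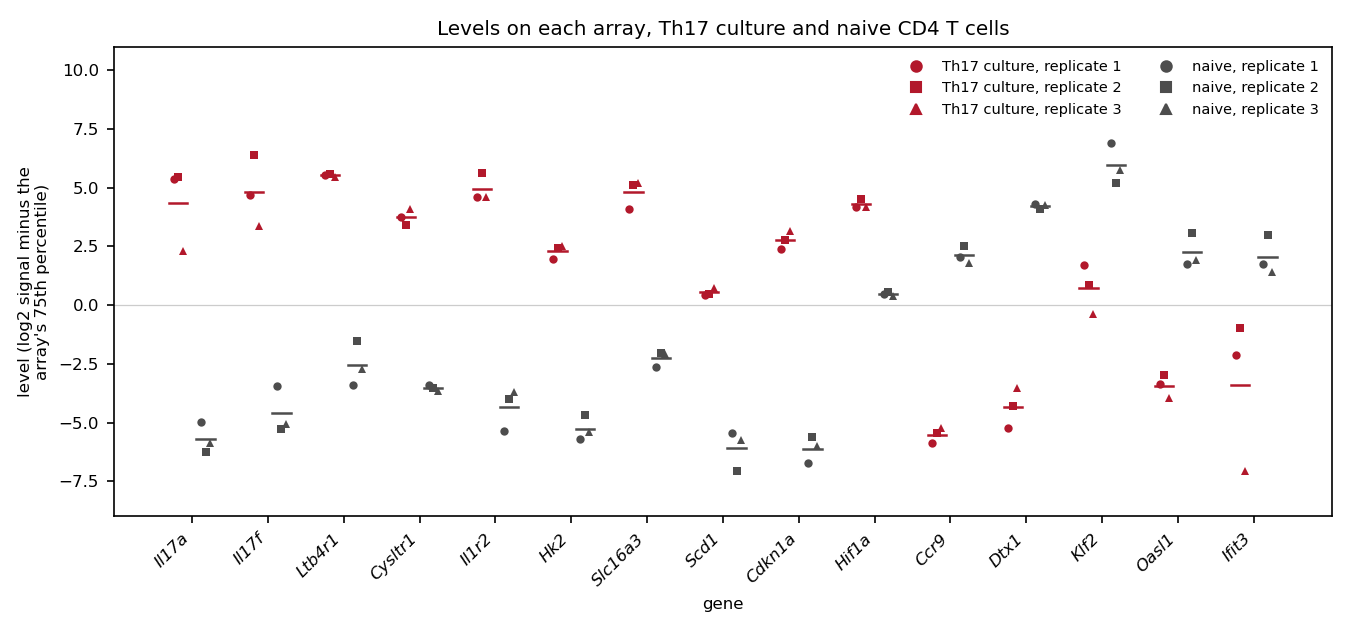
Level of 15 genes (vertical axis, log2 signal minus the array's 75th percentile) on each array, with cultured Th17 arrays in red left of the naive arrays in grey; circles, squares and triangles are replicates 1, 2 and 3 and bars are means of 3. Il17a and Il17f sit high in culture, Dtx1 and Ccr9 sit high in naive cells, and the culture replicate 3 triangle lies lowest for Ifit3, at −7.05.

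The promoters of both interleukin-17 genes hold the core letters of a half-site that nuclear receptors bind. A stretch of each is shown because these are the genes that define the cultured cells; the letters are from RefSeq on GRCm38.p6, 5′ to 3′ on the gene's strand, with the core AGGTCA or its reverse complement in capitals. The Il17a stretch is chr1:20730728-20730847 (plus strand) and the Il17f stretch chr1:20784271-20784390 (minus strand).
Il17a: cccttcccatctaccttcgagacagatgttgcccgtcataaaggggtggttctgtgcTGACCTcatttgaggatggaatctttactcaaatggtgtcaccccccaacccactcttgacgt
Il17f: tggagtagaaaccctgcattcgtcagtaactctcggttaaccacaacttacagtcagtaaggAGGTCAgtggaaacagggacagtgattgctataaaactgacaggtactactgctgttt
For this and every later motif count, the 250 bases before the start were searched. Among 15 of 20 Th17 lineage genes with a promoter in the table, 6 held this core there on either strand, namely Il17a, Il17f, Il23r, Ccr6, Ccl20 and Hif1a, against 13.8% of 27025 mouse promoters and 11.4% of those of tested genes. A match is only a match of letters.

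Of 19 tested Th17 lineage genes, Il17a and Il17f among them, 17 rose and 1 fell, with a median difference of 4.22. Within slides the median was 4.13, 4.14 and 3.64, and without culture replicate 3 the counts were the same. Bhlhe40, a factor that T cells need for their inflammatory cytokines, lay at 3.69, 4.41 and 3.99 in culture, against −1.68, −2.54 and −2.71 in naive cells (6.34 ± 0.31). The interferon regulatory factor gene Irf4 rose by 4.22 ± 0.36, the c-Maf gene Maf by 3.84 ± 0.35, Hif1a by 3.82 ± 0.15, Rora by 2.53 ± 0.36 and Batf by 2.42 ± 0.36. The transcription factor genes Ahr (1.34 ± 0.27) and Stat3 (1.11 ± 0.24) changed least among those that rose. Il6st, which encodes the signalling chain gp130 of the interleukin-6 receptor, was the 1 member that fell, at −1.07, −1.30 and −1.04 in culture against 2.0, 2.17 and 2.10 in naive cells.

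Several effector genes spread widely across the cultures. Il22, an epithelial cytokine gene, lay at 1.57, 4.07 and −2.15 in culture, against −3.58, −3.83 and −4.22 in naive cells (5.04 ± 1.14). Il23r lay at 1.85, 3.15 and −2.29 in culture, against −4.78, −4.05 and −5.26 in naive cells, and Il1r1, the interleukin-1 receptor, at 2.60, 4.28 and −0.10 in culture against −4.76, −3.09 and −3.74 in naive cells. All 3 rose with and without culture replicate 3, which was the lowest cultured array for each of them. Ccr6, the chemokine receptor that binds Ccl20, lay at −1.49, 2.77 and −3.69 in culture, against −0.25, 0.65 and 0.55 in naive cells, and did not pass (adjusted p = 0.536): the naive levels lay inside the cultured range. The suppressive cytokine gene Il10 had the opposite order, with culture replicate 3 highest, at −2.61, −4.36 and 0.93 in culture against −5.69, −5.84 and −5.21 in naive cells, where it was above background on 1 of 3 arrays (3.56 ± 1.09). It was at 2.09 without culture replicate 3 and did not pass without naive replicate 1 or 2 (adjusted p = 0.059 and 0.0617).

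Among 19 tested genes of other helper lineages, 8 rose and 2 fell (4 without culture replicate 1), and the cultures disagreed in many of them. Ifng, the Th1 cytokine gene, lay at 1.32, 4.16 and −4.33 in culture, against 0.94, −0.17 and −0.65 in naive cells. Tbx21, the gene of the Th1 factor T-bet, lay at 0.96, 1.0 and −1.91 in culture, against −2.0, −1.11 and −1.61 in naive cells. Neither passed with all arrays, and both rose without culture replicate 3, by 2.70 (adjusted p = 0.0232) and 2.55 (adjusted p = 0.000123). Cxcr3, a Th1 chemokine receptor gene, was also lowest in that array, at 2.01, −1.34 and −5.21 in culture against 0.65, 0.61 and 1.29 in naive cells.

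The Th2 genes had the reverse order among the cultures. Il4 lay at −1.56, −7.19 and 2.77 in culture, against −6.74, −6.45 and −4.50 in naive cells, where 1 of 3 arrays was above background. Il13 lay at −2.54, −6.22 and 1.40 in culture, against −6.94, −7.98 and −5.49 in naive cells, where it was not above background. Il5, which did not pass the filter on dim probes, lay at −6.23, −6.24 and 1.11 in culture. Culture replicate 3 was the highest cultured array for all 3 cytokines. Il4 and Il13 did not pass, and Il5 was above background on replicate 3 alone. Gata3, the Th2 factor, lay at 2.74, 2.01 and 4.80 in culture and at 3.27, 2.81 and 3.03 in naive cells (0.15 ± 0.65), above all naive arrays only in culture replicate 3. Il24, a cytokine gene, was above its naive range only there as well (−4.71, −5.62 and 1.81 in culture and −4.65, −4.85 and −3.96 in naive cells). Ccr4, a Th2 chemokine receptor gene, rose by 3.60 ± 0.58 with all cultured arrays above all naive ones. Of genes of regulatory T cells, Ctla4 rose by 6.34 ± 0.30, Il2ra by 5.60 ± 0.29 and Ikzf4 by 1.76 ± 0.27, while Foxp3 fell by 2.27 ± 0.51. Ikzf2, the gene of Helios, was −6.23, −4.83 and −7.93 in culture (above background on 1 of 3 arrays), against −0.16, 0.20 and −0.22 in naive cells. In bulk RNA, fewer cells of a type and less RNA per cell cannot be told apart.

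**Figure D3:**
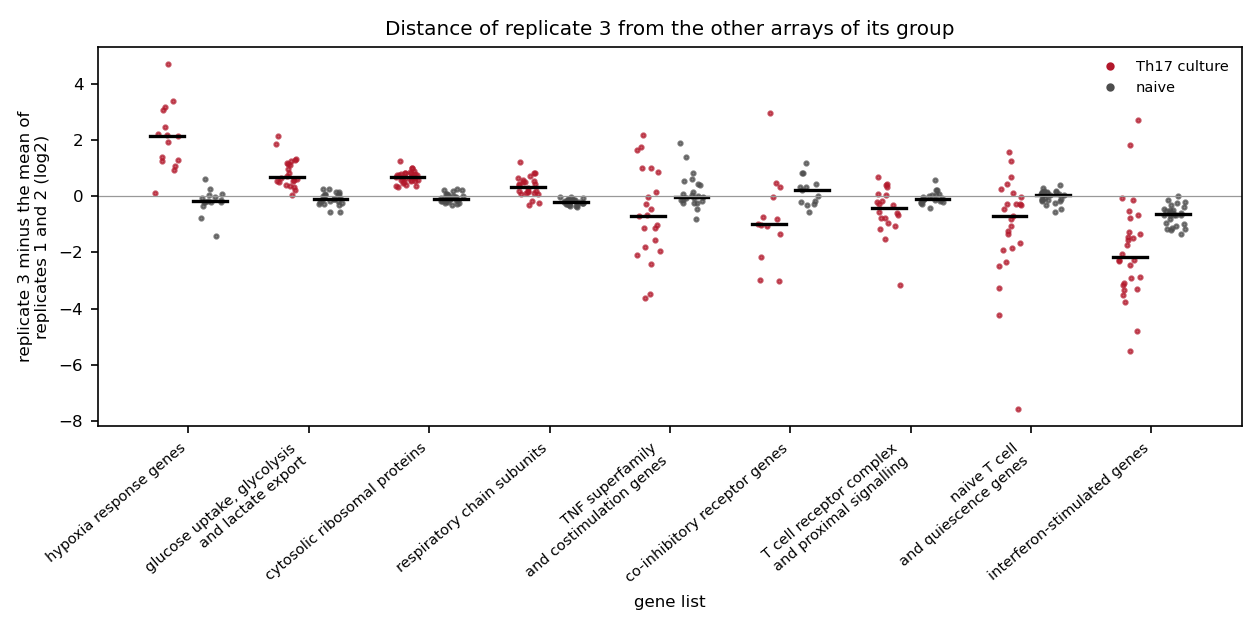
Level on replicate 3 minus the mean of replicates 1 and 2 of the same group (vertical axis, log2) for the members of 9 gene lists, with cultured Th17 cells in red left of naive cells in grey; each point is a gene and bars are medians. In culture the hypoxia genes have a median of 2.15 and the interferon-stimulated genes of −2.16.

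Receptors of inflammatory lipids included 4 genes that rose by more than 5 log2 units. Leukotrienes and prostaglandins are made from arachidonic acid and attract or restrain leukocytes. Of 16 tested genes of these pathways 8 rose and 0 fell (median 1.26; 1.88, 1.32 and 0.91 within slides). Ltb4r1, the high-affinity receptor of leukotriene B4, lay at 5.55, 5.58 and 5.47 in culture, against −3.39, −1.53 and −2.73 in naive cells (8.08 ± 0.39, adjusted p = 4.47e-07). Cysltr1, a receptor of cysteinyl leukotrienes, lay at 3.75, 3.4 and 4.12 in culture, against −3.42, −3.53 and −3.67 in naive cells (7.30 ± 0.34). The cultured arrays agreed within 1 unit of each other for both genes and lay far above the naive ones. Cysltr2 rose by 5.52 ± 0.30, the prostaglandin E2 receptor gene Ptger2 by 5.29 ± 0.32 and the prostacyclin receptor gene Ptgir by 1.58 ± 0.34. The enzymes that make these lipids came out of background: Ptgs2, inducible cyclooxygenase, was at least 7.01-fold higher in culture, Ptgs1 at least 2.85-fold and the lipoxygenase gene Alox5 at least 4.2-fold, none being above background on any naive array. Alox5 did not pass without naive replicate 1 or 2 (adjusted p = 0.0953 and 0.0528). The second prostaglandin E2 receptor gene, Ptger4, did not pass (−0.58 ± 0.34). Alox5ap, the partner of Alox5, rose only without culture replicate 3 (1.52).

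Chemokine receptors were exchanged, with 10 of 20 tested genes of this list higher and 6 lower. Cxcr6 lay at 6.22, 6.78 and 5.27 in culture, against 0.29, 1.05 and 0.71 in naive cells, and Ccr2 at 4.2, 3.97 and 2.36 in culture, against −3.05, −2.0 and −2.12 in naive cells. In both every cultured array was above every naive array, and culture replicate 3 was the lowest culture. Cxcr2 and Ccr1, better known from neutrophils and monocytes, were at least 10.1-fold and 4.82-fold higher and below background on all naive arrays. The retention receptor gene Cxcr4 rose by 2.43 ± 0.40. Going the other way, S1pr1, the receptor by which T cells leave lymphoid organs, fell by 2.44 ± 0.44, Cx3cr1 by 2.58 ± 0.58 (2 of 3 cultured arrays above background), and Ccr10 was at least 2.91-fold lower, though not past the threshold without culture replicate 1 or naive replicate 3 (adjusted p = 0.0561 and 0.0718). Gpr183, an oxysterol receptor gene, rose only without culture replicate 3 (0.94), at 1.11, 1.71 and −1.29 in culture and 0.37, 0.50 and 0.55 in naive cells.

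Integrins and other adhesion genes changed in both directions, 7 of 20 higher and 5 lower. Itga3, a laminin-binding integrin chain, was below background on all naive arrays and at least 66.2-fold higher in culture. Alcam, the ligand of CD6, lay at −1.10, 0.006 and −1.09 in culture, against −5.83, −5.96 and −5.45 in naive cells (above background on 1 of 3 arrays). Cd44, an adhesion receptor used as a mark of activated T cells, rose by 3.08 ± 0.27 and the integrin chain gene Itgav by 2.31 ± 0.25. Itga4, the alpha chain of the integrin VLA-4, lay at 1.10, 1.17 and −1.42 in culture, against 3.48, 3.59 and 3.55 in naive cells (−3.26 ± 0.59), with culture replicate 3 more than 2 units under the other cultured arrays. Icam2 fell by 2.21 ± 0.33 and the laminin-binding chain gene Itga6 by 2.01 ± 0.15.

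Cytokine receptor genes had 10 of 26 tested members higher and 3 lower. Il1r2, the decoy receptor of interleukin-1, lay at 4.59, 5.62 and 4.61 in culture, against −5.37, −4.01 and −3.68 in naive cells (above background on 2 of 3 arrays), a difference of 9.30 ± 0.53. Il2rb, a signalling chain of the receptors of interleukin-2 and interleukin-15, lay at 4.55, 5.01 and 4.87 in culture, against 0.50, 0.30 and 0.61 in naive cells (4.34 ± 0.19). The groups were far apart for both. Il12rb1, shared by the receptors of interleukin-12 and interleukin-23, rose by 3.18 ± 0.31, Il12rb2 by 3.32 ± 0.32 and Il4ra by 2.27 ± 0.29. The interleukin-6 receptor chain gene Il6ra lay at 2.43, 2.61 and 2.48 in culture, against 5.22, 4.98 and 5.35 in naive cells, and fell by 2.68 ± 0.17, as its partner Il6st did. Ifnar1, a chain of the type I interferon receptor, fell by 1.27 ± 0.17 and the interleukin-17 receptor chain gene Il17ra by 1.18 ± 0.33 (adjusted p = 0.0551 without naive replicate 2). Il18r1, a chain of the interleukin-18 receptor, depended on culture replicate 3. It lay at 3.57, 4.06 and −0.26 in culture and 2.08, 2.13 and 2.21 in naive cells and rose only without it (1.68), and Il7r did likewise (1.08 ± 0.40 with it and 1.53 without it).

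Among 18 tested genes of cytokine signalling 6 rose and 3 fell. The feedback inhibitors led. Socs2 lay at 1.76, 1.06 and 2.74 in culture, against −4.15, −3.68 and −3.32 in naive cells (5.57 ± 0.40), and Cish, a target of STAT5, at 4.65, 4.98 and 5.61 in culture, against 0.89, 0.15 and 0.44 in naive cells (4.59 ± 0.25). Socs1 rose by 1.93 ± 0.26, the kinase genes Jak3 by 1.68 ± 0.36 and Jak2 by 1.07 ± 0.22, and the survival kinase gene Pim1 by 1.62 ± 0.27. Jak1 fell by 1.27 ± 0.24, Stat6 by 0.78 ± 0.16 and Tyk2 by 0.68 ± 0.16. Socs3, the inhibitor of gp130 signalling, differed by 0.64 ± 0.26 and did not pass.

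Glycolysis had the highest share of raised genes among the energy lists. Of 22 tested genes 17 rose and 1 fell, with a median of 2.01 and 1.38, 2.20 and 2.70 within slides, and the counts were the same without culture replicate 3. Slc16a3, the lactate exporter, lay at 4.12, 5.14 and 5.20 in culture, against −2.62, −2.06 and −2.10 in naive cells (7.08 ± 0.38). Aldoc lay at 5.0, 5.20 and 6.43 in culture, against −0.59, −1.80 and −1.04 in naive cells (6.69 ± 0.46). Hk2, the hexokinase that commits glucose to the pathway, lay at 1.96, 2.44 and 2.51 in culture, against −5.71, −4.68 and −5.39 in naive cells (above background on 2 of 3 arrays). Each of the 3 was raised on every cultured array. The steps along the pathway followed, with triose phosphate isomerase Tpi1 up by 4.70 ± 0.34, Pgk1 by 3.94 ± 0.34, Pgam1 by 3.46 ± 0.34, Pkm by 2.96 ± 0.24, the glucose transporter genes Slc2a3 by 3.64 ± 0.52 and Slc2a1 by 2.64 ± 0.36, Gapdh by 1.96 ± 0.23 and lactate dehydrogenase Ldha by 1.36 ± 0.19. Ldhb, the isoform that favours lactate use, fell by 1.84 ± 0.38 (−0.54, 0.72 and 0.29 in culture and 2.20, 2.16 and 1.62 in naive cells). Hk1, the constitutive hexokinase, differed by −0.044 ± 0.16 and the transporter gene Slc16a1 by 0.10 ± 0.17, and neither passed. Culture replicate 3 was above both other cultures in 20 of the 22 genes.

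Genes known as targets of hypoxia-inducible factor rose, and culture replicate 3 was their highest array. Of 15 tested, 9 rose and 1 fell with all arrays, at a median of 3.08, and the counts were the same without culture replicate 3, at a median of 1.52. Bnip3, a gene of mitochondrial autophagy, lay at 3.77, 4.75 and 6.41 in culture, against −0.23, 0.30 and −0.74 in naive cells (5.20 ± 0.63). Ndrg1 lay at 1.79, 2.79 and 5.68 in culture, against −0.85, −0.81 and −0.87 in naive cells (4.26 ± 0.76), and P4ha2, a collagen prolyl hydroxylase, at 0.22, 1.67 and 4.01 in culture, against −2.02, −1.80 and −1.30 in naive cells (3.67 ± 0.76). In all 3 genes replicate 3 was the highest cultured array, by more than 1 unit. Car12, a carbonic anhydrase gene, showed this most, at −0.71, −0.72 and 3.97 in culture and −2.23, −2.28 and −2.19 in naive cells. It differed by 3.08 ± 0.99 with that array and 1.52 without it, and it missed the threshold without any 1 naive array (adjusted p = 0.0649 to 0.0676). Egln3, an oxygen sensor gene, rose by 5.57 ± 0.34, the growth factor gene Vegfa by 5.97 ± 0.66 (2 of 3 naive arrays above background), and Adm, the gene of adrenomedullin, at least 56.7-fold. Replicate 3 was above both other cultures in 14 of 15 genes, by a median of 2.15. Pdk1, the gene of a kinase that inhibits pyruvate dehydrogenase, is itself known as such a target. It fell, at 0.88, 0.95 and 1.85 in culture against 2.80, 2.95 and 2.80 in naive cells (−1.63 ± 0.25). Bnip3l, Kdm3a, P4ha1, Car9 and Egln1 did not pass.

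The core letters ACGTG, to which hypoxia-inducible factors bind, occurred in 8 of 14 promoters of the hypoxia list and in 9 of 21 of the glycolysis list, against 16.6% of all mouse promoters and 21.0% of those of tested genes. Both strands were searched, and the same letters are part of the E-box of other factors. The stretches of Bnip3 (chr7:138909553-138909672, minus strand) and Slc16a3 (chr11:120948947-120949066, plus strand) are shown, with the core in capitals, because these are among the most raised genes of their lists (RefSeq, GRCm38.p6).
Bnip3: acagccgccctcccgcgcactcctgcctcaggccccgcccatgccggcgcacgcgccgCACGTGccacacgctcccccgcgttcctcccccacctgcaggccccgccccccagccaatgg
Slc16a3: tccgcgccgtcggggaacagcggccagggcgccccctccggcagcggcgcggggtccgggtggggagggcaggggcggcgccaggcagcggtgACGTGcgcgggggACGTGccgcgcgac

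The mitochondrial programmes had fewer calls. Of 18 tested genes of the citrate cycle 2 rose and 3 fell, with Sdhd up by 0.82 ± 0.22 and Idh2 down by 1.54 ± 0.26. For the respiratory chain 8 of 24 rose and 2 fell, at a median of 0.30, but within slides the median was −0.09, −0.019 and 0.69, and 4 rose without culture replicate 1 or 3, 3 without naive replicate 2 and 2 without naive replicate 3. That call set also changed with scaling, to 5 higher and 6 lower under quantile normalization. Cox5a, a subunit of cytochrome oxidase, lay at 6.49, 6.51 and 6.27 in culture, against 5.17, 4.85 and 4.88 in naive cells (1.46 ± 0.16), while Ndufa4 fell by 0.86 ± 0.22. Of 16 fatty acid oxidation genes 7 rose and 1 fell (0 without culture replicate 2 or naive replicate 1 or 2), and Acadl, a dehydrogenase of long-chain fatty acids, stood out, at 3.60, 3.51 and 3.75 in culture against 0.23, 0.37 and −0.041 in naive cells (3.44 ± 0.16). Cpt1a, the entry step of that pathway, did not pass (0.33 ± 0.28). The pentose phosphate pathway had 4 of 7 higher, led by Tkt (1.17 ± 0.29), and 1 lower, Rpia (−0.62 ± 0.18). Those higher were 2 without culture replicate 1 or 2 or naive replicate 1 or 3, and Rpia did not pass without culture replicate 2 or naive replicate 1 (adjusted p = 0.0595 and 0.0534).

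Cholesterol synthesis moved as a block. Of 24 tested genes of the pathway and its regulators 23 rose and none fell by this test, at a median of 1.94 and 1.40, 2.17 and 2.0 within slides. No fitted setting called fewer than 19 of them. In pathway order, Hmgcs1, the synthase that makes HMG-CoA, lay at 4.17, 4.16 and 4.21 in culture, against 2.11, 1.6 and 2.0 in naive cells (2.27 ± 0.17). Mvd, a decarboxylase of the mevalonate steps, rose by 2.44 ± 0.27, Idi1 by 2.03 ± 0.23, Fdft1, squalene synthase, by 2.0 ± 0.26, Lss by 2.20 ± 0.22, Cyp51 by 1.94 ± 0.19 and Msmo1 by 2.20 ± 0.20. For every one of these each cultured array was above each naive array. The sensor gene Insig1 (2.15 ± 0.32) and the carrier gene Stard4 (2.19 ± 0.24) rose with them, as did Srebf2 (1.34 ± 0.31), which encodes the factor SREBP2 that drives the pathway. Tm7sf2 alone did not pass (0.50 ± 0.23). Naive replicate 1 was the highest naive array for Sqle (1.73, 0.22 and 1.11 in naive cells), and the pathway's difference was smallest within slide 1.

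Fatty acid genes rose as well, 9 of 13 with 0 lower (median 1.34). The desaturases led. Scd1 and Fads2 were below background on all naive arrays and at least 72.2-fold and 24.1-fold higher in culture, and Me1, the malic enzyme that supplies NADPH, at least 18.2-fold. Another probe of Fads2 differed by 4.16 log2 units, which is less than its bound. Scd2 lay at 5.19, 5.47 and 6.07 in culture, against 1.46, 2.09 and 2.03 in naive cells (3.72 ± 0.26). Elovl6, an elongase gene, rose by 1.6 ± 0.41 and Acaca, the first step of synthesis, by 0.98 ± 0.20. The synthase gene Fasn (0.15 ± 0.26) and Acly (0.19 ± 0.14) did not pass. Targets of the sterol-sensing LXR receptors split, with 2 of 9 higher, Scd2 and Lpcat3 (0.95 ± 0.20), and 3 lower. Of the lower ones, the lipoprotein gene Apoe fell by 1.31 ± 0.31, Abcg1, a cholesterol exporter, fell by 1.44 ± 0.32 and Mylip, a ubiquitin ligase gene, by 3.11 ± 0.35, at −0.053, −1.31 and −1.43 in culture against 1.95, 2.41 and 2.16 in naive cells. Abca1, the other exporter, did not pass (−1.25, 0.22 and −3.01 in culture and −1.81, −1.14 and −2.55 in naive cells).

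In the promoters of the cholesterol list the CCAAT box (CCAAT, or ATTGG on the other strand) was common, in 15 of 17, against 34.5% of all promoters and 36.3% of those of tested genes. The sterol element in the form TCACNCCAC occurred in 1 of 17, that of Hmgcs1, against 1.04% of all. That stretch of Hmgcs1 (chr13:119690158-119690277, plus strand, RefSeq GRCm38.p6) is shown because the gene stands at the head of the pathway, with the sterol element in capitals.
Hmgcs1: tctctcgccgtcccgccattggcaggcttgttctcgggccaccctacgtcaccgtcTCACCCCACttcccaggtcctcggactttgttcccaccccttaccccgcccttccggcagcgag

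Most genes listed for a stress response that is known to run through the factor ATF4 rose. Of 15 tested genes of that list 12 rose and none fell by this test (median 2.71; 2.42, 3.14 and 2.46 within slides). Stc2, a secreted glycoprotein gene, lay at 0.88, 1.80 and 2.95 in culture, was not above background on any naive array, and was at least 184-fold higher. Nupr1 lay at 0.49, 2.35 and 0.94 in culture, against −5.39, −5.53 and −3.99 in naive cells (above background on 2 of 3 arrays), and Asns, asparagine synthetase, at 2.14, 2.09 and 3.22 in culture, against −3.64, −1.49 and −0.48 in naive cells (4.35 ± 0.67). All cultured arrays were above all naive ones for these genes. Chac1, which breaks down glutathione, was at least 25.8-fold and Cth, which makes cysteine, at least 7.93-fold higher. Atf5 rose by 2.12 ± 0.41, Cebpb by 1.72 ± 0.45 and Sesn2 by 1.26 ± 0.23. Atf4 itself (0.38 ± 0.43) and Ddit3 (0.15 ± 0.39) did not pass. The letters TGATGNAA, to which ATF4 binds with its partners, occurred in 3 of 14 promoters of the list, against 3.53% of all and 2.21% of those of tested genes. The stretches of Nupr1 (chr7:126625517-126625636, minus strand) and Chac1 (chr2:119350993-119351112, plus strand) are shown with those letters in capitals, because both genes came up near or out of background (RefSeq, GRCm38.p6).
Nupr1: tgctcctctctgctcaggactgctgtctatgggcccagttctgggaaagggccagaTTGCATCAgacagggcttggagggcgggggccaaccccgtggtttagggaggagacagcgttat
Chac1: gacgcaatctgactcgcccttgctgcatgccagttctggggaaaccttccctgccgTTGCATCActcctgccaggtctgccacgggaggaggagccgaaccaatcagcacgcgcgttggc

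Neighbouring amino acid programmes moved less. Of 15 transporter genes 3 rose and 2 fell: Slc6a9, a glycine transporter, rose by 2.97 ± 0.43, and Slc43a1 was at least 8.68-fold lower and below background on all cultured arrays. Slc7a11, the cystine importer, lay at −5.59, −4.05 and −7.95 in culture, below background in naive cells, and rose only without culture replicate 3 (adjusted p = 0.0035). In the serine and one-carbon list 5 of 13 rose and 2 fell (1 without culture replicate 3 or naive replicate 2), with Psat1 up by 1.52 ± 0.34, the mitochondrial enzyme gene Mthfd2 up by 1.08 ± 0.29 and the cytosolic Mthfd1 down by 0.96 ± 0.25. For the unfolded protein response 5 of 17 rose and 1 fell, the co-chaperone gene Dnajc3 (−0.79 ± 0.23; adjusted p = 0.0633 without naive replicate 2). Those that rose included Ero1a (4.22 ± 0.64), an oxidase of the endoplasmic reticulum, and the factor gene Xbp1 (1.76 ± 0.26). Hspa5, its main chaperone gene, did not pass (0.30 ± 0.37).

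Genes of mitosis rose in the cultured cells in each setting tried: 20 of 21 tested rose, 0 fell, and the count was the same under every alternative. The median was 2.91. Cdk1, the kinase that starts mitosis, lay at 0.94, −0.031 and 0.66 in culture, against −3.70, −2.19 and −2.33 in naive cells (3.27 ± 0.40). Ccnb1, its cyclin, lay at 1.86, 0.96 and 1.5 in culture, against −2.51, −1.05 and −0.78 in naive cells (2.88 ± 0.45). Naive replicate 1 was the lowest naive array for both, and the list's median within slides was 4.17, 2.12 and 2.90. Tpx2, a spindle assembly gene, rose by 3.59 ± 0.31, the kinase gene Aurka by 2.91 ± 0.28, Plk1 by 2.42 ± 0.32, and Aurkb, below background on all naive arrays, was at least 6.78-fold higher. Kif23, a motor of cell separation, was the exception, at −0.39, −0.93 and −0.21 in culture and −0.31, −0.39 and −0.57 in naive cells. That depends on the probe, as another probe of Kif23 differed by 0.99.

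DNA replication genes rose in part. Of 24 tested 12 rose and 0 fell, at a median of 0.57. Mcm10, which starts replication forks, lay at 1.0, 0.28 and 0.20 in culture, against −3.34, −1.77 and −1.61 in naive cells (2.73 ± 0.42). Cdc6, a licensing factor, rose by 2.38 ± 0.48, Pole by 1.96 ± 0.29, Mcm6 by 1.48 ± 0.26 and Mcm3 by 1.06 ± 0.21. Pcna, the sliding clamp, lay at 4.63, 3.80 and 3.87 in culture and 4.54, 4.01 and 4.16 in naive cells (−0.14 ± 0.25), and neither it nor Mcm2 (−0.019 ± 0.26) nor Cdt1 (−0.57 ± 0.23) passed. Cyclins and kinases of the first gap phase and their E2F factors had 8 of 11 higher, with Cdk6 up by 3.30 ± 0.30 (2 of 3 naive arrays above background), E2f1 by 2.39 ± 0.31, Ccne1 by 1.88 ± 0.25 and Ccnd3 by 1.53 ± 0.15.

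The brakes of the cell cycle rose alongside. Of 12 tested inhibitors and pocket proteins 9 rose and 1 fell. Cdkn1a, the gene of p21, lay at 2.38, 2.78 and 3.18 in culture, against −6.74, −5.60 and −6.00 in naive cells (above background on 1 of 3 arrays), a difference of 8.89 ± 0.42 (adjusted p = 4.39e-07). Over its probes the difference ran from 3.69 to 8.89. Cdkn2a lay at 0.49, 0.017 and −0.10 in culture, against −5.96, −4.69 and −5.19 in naive cells (2 of 3 above background), and Cdkn2b at −1.97, −1.59 and −1.65 in culture, against −5.05, −6.80 and −5.20 in naive cells (2 of 3). The cultured arrays were close together and apart from the naive ones in all 3. Cdkn2c rose by 1.30 ± 0.27 and Cdkn2d by 1.16 ± 0.19, whereas Cdkn1b, the gene of p27 that is known to hold resting T cells, did not pass (−0.21 ± 0.21). Rbl1, a pocket protein, fell by 0.91 ± 0.27 (adjusted p = 0.0748 without naive replicate 2), while another of its probes differed by 0.068.

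The CCAAT box occurred in 15 of 17 promoters of the mitosis list (34.5% of all). The cell cycle homology region, here TTTGAA, occurred in 6 of 17, against 16.3% of all promoters and 11.3% of those of tested genes, and the E2F letters TTTNGCGC in 4 of 20 promoters of the replication list, against 1.15% and 1.89%. The stretch of Cdk1 (chr10:69352921-69353040, minus strand) with its cell cycle homology region in capitals and that of Mcm6 (chr1:128359752-128359871, minus strand) with its E2F letters in capitals are shown because both genes rose and hold them (RefSeq, GRCm38.p6).
Cdk1: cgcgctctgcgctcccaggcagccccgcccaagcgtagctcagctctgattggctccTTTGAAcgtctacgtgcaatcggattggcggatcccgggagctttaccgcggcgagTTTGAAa
Mcm6: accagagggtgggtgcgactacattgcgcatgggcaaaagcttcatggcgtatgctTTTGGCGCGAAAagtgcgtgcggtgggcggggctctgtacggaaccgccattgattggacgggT

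Genes that supply growth did not rise as a block. For nucleotide synthesis 7 of 24 rose and 4 fell (7 fell without culture replicate 1). Upp1, which splits uridine, lay at 2.66, 3.65 and 3.33 in culture, against −4.61, −5.35 and −4.23 in naive cells (7.95 ± 0.41). The S phase enzyme genes Tk1 (3.02 ± 0.37), Rrm2 (2.80 ± 0.55) and Rrm1 (1.37 ± 0.28) rose, while enzymes of the new synthesis of purines and pyrimidines fell, Gart by 1.65 ± 0.27, Dhodh by 1.56 ± 0.20 and Adsl by 1.03 ± 0.25. Cad, the first enzyme of pyrimidine synthesis, did not pass (−0.25 ± 0.18). Of 25 ribosome biogenesis genes none rose and 11 fell by this test, at a median of −0.53, and 6 to 14 fell over the alternatives, 6 without culture replicate 2 or naive replicate 1 or 2 and 7 without naive replicate 3. Pes1 lay at −1.38, −2.45 and −2.91 in culture, against 0.052, −0.29 and −0.12 in naive cells (−2.12 ± 0.34), and Fbl, the methylase of ribosomal RNA, at 2.22, 1.33 and 2.28 in culture, against 3.31, 2.81 and 3.07 in naive cells (−1.12 ± 0.25). Another probe of Pes1 differed by only −0.36. The nucleolar protein genes Npm1 (0.49 ± 0.38) and Ncl (0.52 ± 0.25) did not pass, and the probes of Ncl disagreed in sign. In the family around MYC 5 of 11 rose and 4 fell (2 without culture replicate 1 or naive replicate 3). Mycn was below background on all naive arrays and at least 38.1-fold higher in culture. Myc rose by 0.63 ± 0.21, a call lost without any 1 array but culture replicate 3 (adjusted p = 0.0596 to 0.13), and so did its antagonists Mxd1 (2.99 ± 0.51) and Mxd3 (3.20 ± 0.35), while the shared partner Max fell by 0.86 ± 0.15.

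None of 30 ribosomal protein genes passed in either direction, and their median was −0.049. Culture replicate 3 was above both other cultures in 30 of 30 of them, by a median of 0.69, and the median within slides was −0.47, −0.12 and 0.45. Without that array 3 of them fell. Of 30 proteasome genes 6 rose, with Psmb2 at 0.78 ± 0.21, and from 0 to 17 of them rose under other settings. The median of the proteasome list was positive within each slide, at 0.25, 0.24 and 0.32, and it was the count of rises that moved, to 0 without culture replicate 1 or naive replicate 3 and to 1 without naive replicate 2. Psmb2 missed the threshold without the first or second of these arrays (adjusted p = 0.051 and 0.0558). The antioxidant list had 7 of 15 higher (4 without naive replicate 2 or 3), led by Srxn1, which repairs peroxiredoxins, at 2.13, 2.35 and 0.89 in culture against −4.79, −4.61 and −3.72 in naive cells (6.16 ± 0.44). Prdx2 rose by 1.88 ± 0.18, thioredoxin Txn1 by 1.59 ± 0.21 and its reductase gene Txnrd1 by 0.97 ± 0.32, the last past the threshold without 1 array only where that was culture replicate 3. Among iron genes Hmox1, the oxygenase that degrades haem, rose by 4.13 ± 0.52 and Tfrc, the transferrin receptor, by 2.20 ± 0.25, 3 of 10 in all with Fth1 (0.86 ± 0.22).

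**Figure D4:**
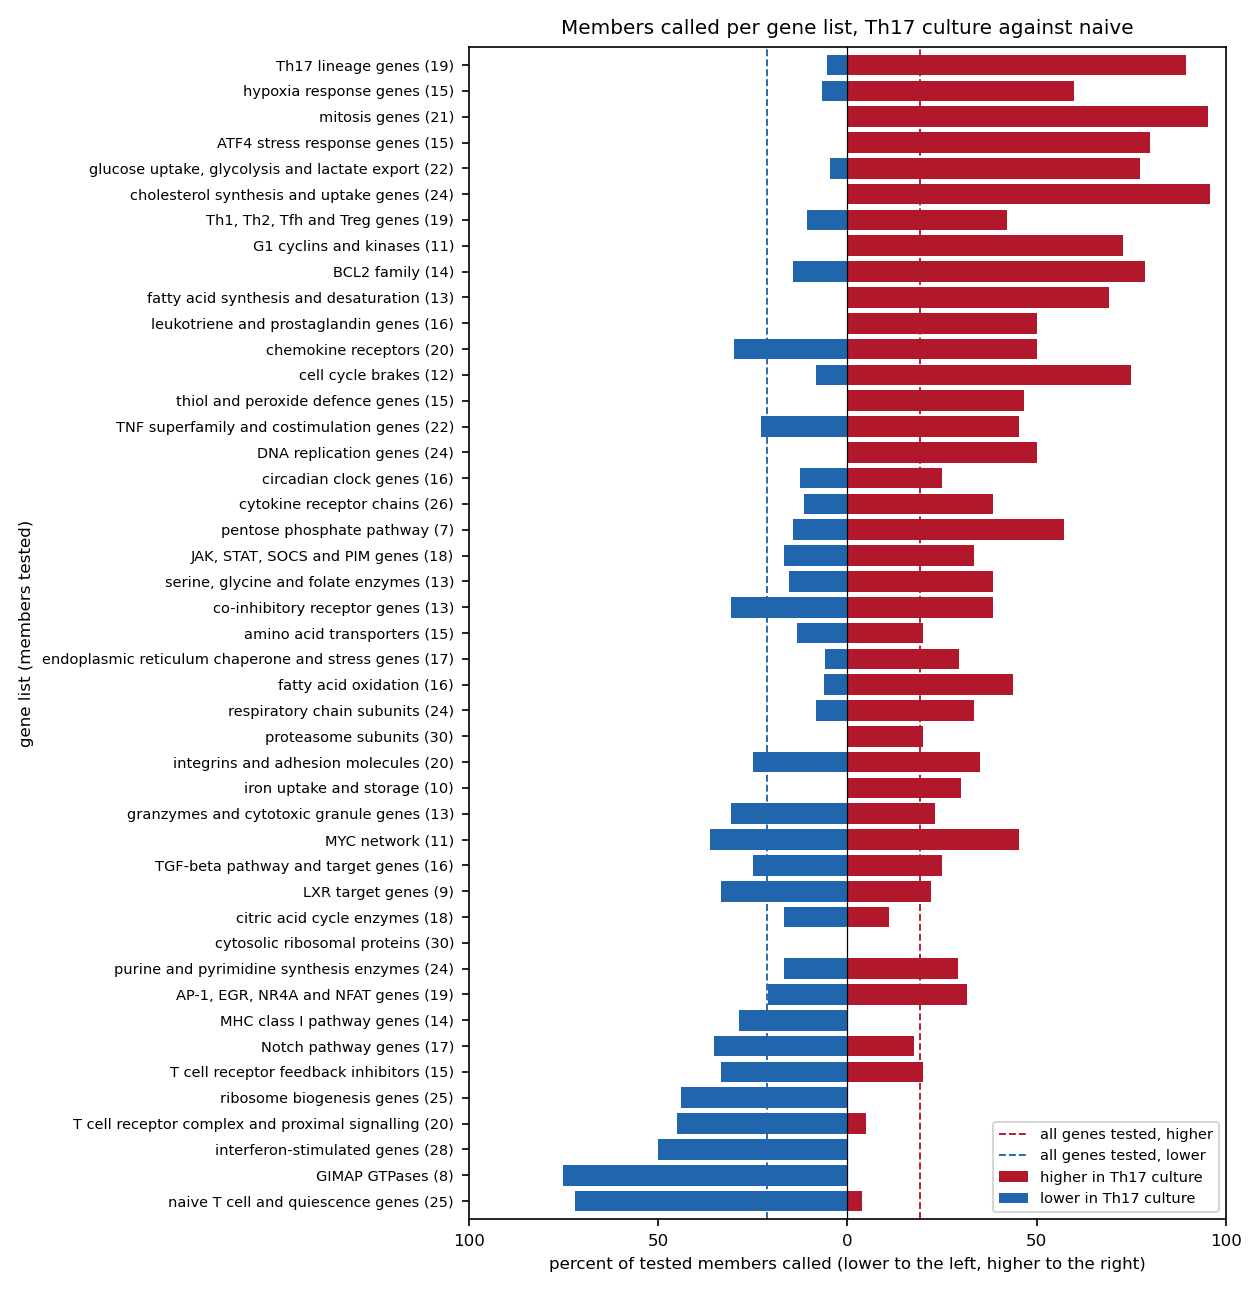
Percent of the tested members of each gene list that rose (red, to the right) or fell (blue, to the left) in cultured Th17 against naive cells, with the number tested in brackets and the percent over all genes as dashed lines (19.2% higher and 21.3% lower). Cholesterol and mitosis genes reach furthest right, and naive and GIMAP genes furthest left.

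The naive programme fell. Of 25 tested genes of naive and resting T cells 18 fell and 1 rose, at a median of −2.44 and −2.21, −2.13 and −2.46 within slides, and 16 fell without culture replicate 3. Klf2, a factor that keeps T cells quiescent, lay at 1.70, 0.85 and −0.38 in culture, against 6.91, 5.21 and 5.76 in naive cells (−5.24 ± 0.57), and Klf3 at −1.31, −0.93 and −3.46 in culture, against 4.37, 4.33 and 4.55 in naive cells (−6.32 ± 0.53). Foxp1, another quiescence factor, lay at 1.74, 1.09 and 0.34 in culture, against 4.94, 4.82 and 4.76 in naive cells (−3.78 ± 0.34). Culture replicate 3 was lowest for all 3 factors. Ms4a4b, a membrane protein gene of naive T cells, showed this most, at 2.19, 2.28 and −5.32 in culture and 6.36, 6.81 and 6.69 in naive cells (−6.90 ± 1.62; −4.38 without it). Tcf7, the gene of TCF-1, fell by 2.14 ± 0.67 and only by 1.31 without that array, which no longer passed (adjusted p = 0.0617), nor did it without naive replicate 1 or 3 (0.068 and 0.0652). Lef1, its relative, fell by 1.82 ± 0.27 with the cultured arrays at 4.26, 3.98 and 3.83. Actn1 fell by 4.50 ± 0.30, Id3 by 3.07 ± 0.48 and Foxo1 by 0.85 ± 0.26, the last missing the threshold without culture replicate 1 or 2 or naive replicate 1 or 3 (adjusted p = 0.0523 to 0.0726). Dapl1 was above background on 1 of 3 cultured arrays, at −8.21, −5.77 and −7.80 in culture against 4.85, 3.75 and 4.44 in naive cells. Bcl2, a survival gene, was the 1 member that rose (1.15 ± 0.41), and it did not pass without culture replicate 3 (0.62) or without naive replicate 2 or 3 (0.90 and 1.11). Satb1 (0.38 ± 0.28) and Btg1 (−0.33 ± 0.16) did not pass.

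The GIMAP family of lymphocyte GTPases fell with it, 6 of 8 tested, at a median of −1.52. Gimap6 lay at 4.75, 3.75 and 4.35 in culture, against 5.98, 5.92 and 6.20 in naive cells (−1.75 ± 0.34), and Gimap3 at 4.75, 4.35 and 4.48 in culture, against 6.06, 6.43 and 6.38 in naive cells (−1.76 ± 0.24). Gimap1 did not pass (−0.31 ± 0.25). Genes of the T cell receptor and its signalling moved less, 1 of 20 higher and 9 lower at a median of −0.54. The CD3 chain genes Cd3d (0.35 ± 0.22), Cd3g (0.13 ± 0.29) and Cd3e (−0.46 ± 0.21) and Cd4 (0.38 ± 0.19) did not pass, and both populations had them well above background on all arrays. The kinase gene Txk lay at 1.36, 1.39 and −1.78 in culture, against 3.80, 3.96 and 3.81 in naive cells (−3.53 ± 0.79), and Prkcq fell by 1.33 ± 0.29, Fyn by 1.77 ± 0.30 and Lck by 0.70 ± 0.20. Cd28, the main costimulatory receptor, rose by 1.13 ± 0.35. Without naive replicate 1 only 5 of the list fell and neither Lck (adjusted p = 0.0623) nor Cd28 (0.0936) passed, and Cd28 did not pass without culture replicate 1 or 2 either (0.0819 and 0.0664). Of 15 genes that damp such signals 3 rose and 5 fell. The diacylglycerol kinases Dgka (−1.98 ± 0.32) and Dgkz (−1.19 ± 0.16) fell, and Dusp4 (4.04 ± 0.71) and Rgs1 (3.21 ± 0.83) rose.

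In the Notch pathway 6 of 17 tested genes fell (5 without culture replicate 3) and 3 rose, with Rbpj, the DNA-binding partner of Notch, at 3.08, 2.76 and 4.74 in culture against −0.31, 0.35 and −0.047 in naive cells (3.53 ± 0.42). Dtx1 was given above, Dtx4, its relative, fell by 2.15 ± 0.63 (1.27 without culture replicate 3, and not past the threshold without naive replicate 2, adjusted p = 0.0727), and the receptor gene Notch1 did not pass (−0.65 ± 0.60). In the pathway of transforming growth factor beta 4 of 16 rose and 4 fell, but 2 fell without culture replicate 1 or 3 or naive replicate 1 or 2. Tgfb3, a ligand, lay at 0.95, 0.29 and 3.62 in culture, against −2.34, −3.44 and −3.13 in naive cells (4.59 ± 0.71). Tgfbi, a target, lay at 1.81, 4.59 and −0.75 in culture, against −4.88, −3.83 and −4.80 in naive cells (6.38 ± 1.02). Replicate 3 was highest among the cultures for the first and lowest for the second. The signal transducer gene Smad4 fell by 1.04 ± 0.19 and the inhibitor gene Smad7 by 1.45 ± 0.31. Ahrr, the repressor induced by the aryl hydrocarbon receptor, was below background on all naive arrays and at least 19.8-fold higher, and Tiparp, another target, did not pass (0.68 ± 0.48).

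Interferon-stimulated genes were lower in culture, and the size depended on replicate 3. Of 28 tested 14 fell and 0 rose at a median of −1.41; within slides the median was −0.70, −1.37 and −2.09. Oas2, a sensor of double-stranded RNA, lay at −2.28, −0.59 and −4.53 in culture, against 2.65, 4.14 and 3.4 in naive cells (−5.87 ± 0.78). Ifit1 lay at −1.92, −0.81 and −4.86 in culture, against 0.12, 1.70 and 0.11 in naive cells (−3.17 ± 0.84; −2.01 without culture replicate 3), and Irf7, the factor that amplifies the response, at −1.22, −0.95 and −3.15 in culture, against 1.01, 1.74 and 0.71 in naive cells (−2.93 ± 0.58). In each of them the groups did not overlap, and culture replicate 3 was the lowest of all. It was below both other cultures in 24 of 28 genes, by a median of −2.16. Without it the counts were the same, 14 lower and 0 higher, at a median of −0.82. Usp18, which ends interferon signalling, was an exception, with replicate 3 the highest culture, at −2.34, −1.61 and −0.16 in culture against 1.69, 2.57 and 1.53 in naive cells. Naive replicate 2 was the highest naive array for Oas2, Ifit1 and Irf7, and for Ifit3, at −2.12, −0.97 and −7.05 in culture (above background on 2 of 3 arrays) and 1.73, 3.01 and 1.43 in naive cells (−5.44 ± 1.23; −3.61 without culture replicate 3). Mx1 (−0.20 ± 0.76) and Gbp2 (0.44 ± 0.54) did not pass. Of 14 genes of antigen presentation 4 fell, including Nlrc5, their activator (−1.95 ± 0.53), and H2-K1 (−0.49 ± 0.17), whose probe may be shared with close relatives. That count was 2 without culture replicate 2 or naive replicate 2 and 1 without naive replicate 1, and Nlrc5 fell by 1.17 without culture replicate 3.

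The interferon-stimulated response element (TTTC, 2 bases of any kind, then TTTC, on either strand) occurred in 11 of 21 promoters of the list, against 3.04% of all and 2.90% of those of tested genes. Among the members that fell, 4 of 10 with a promoter held it. Whether the element has a part in the falls was not tested. The stretches of Ifit3 (chr19:34583318-34583437, plus strand) and Oas1a (chr5:120907526-120907645, minus strand) are shown with the element in capitals, because both genes fell with and without culture replicate 3 (RefSeq, GRCm38.p6).
Ifit3: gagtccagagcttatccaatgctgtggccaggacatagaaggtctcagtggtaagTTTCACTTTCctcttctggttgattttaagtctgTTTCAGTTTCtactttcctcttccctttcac
Oas1a: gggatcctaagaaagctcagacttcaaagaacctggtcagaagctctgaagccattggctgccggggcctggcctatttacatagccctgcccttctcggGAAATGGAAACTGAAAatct

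**Figure D5:**
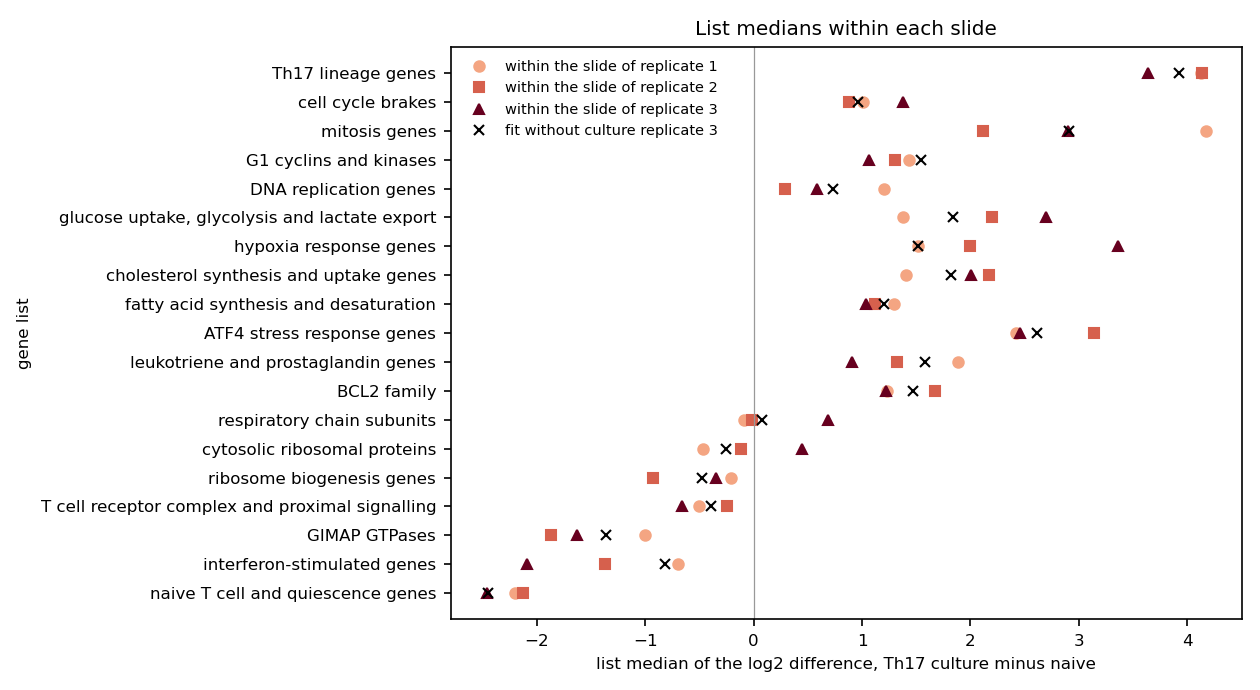
Median over the tested members of a gene list of the difference of cultured Th17 minus naive cells (horizontal axis, log2) within the slide of replicates 1 (circle), 2 (square) and 3 (triangle), and in the fit without culture replicate 3 (cross). The interferon list lies at −2.09 and the hypoxia list at 3.36 on the slide of replicate 3, and ribosomal proteins lie on both sides of 0.

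Immediate early genes, which switch on within minutes of a stimulus, depended on a naive array. Fos lay at −2.96, −1.59 and −0.68 in culture and at 5.21, −1.16 and 2.38 in naive cells, and Fosb at −3.92, −3.55 and −2.75 in culture and 3.41, −3.95 and −0.46 in naive cells. Jun lay at 4.11, 4.83 and 5.24 in culture and 7.35, 4.26 and 5.18 in naive cells, and Dusp1, a phosphatase induced with them, at −0.65, −0.17 and −0.30 in culture and 4.01, −1.24 and 1.64 in naive cells. Naive replicate 1 was the highest naive array in each, and the cultured levels lay inside or below the naive range. Of 19 tested 6 rose and 4 fell, but 1 fell without naive replicate 1 or 3 or culture replicate 1 or 2, and 5 rose and 2 fell without culture replicate 3. The members that rose were others: Batf3, at 2.35, 1.76 and 5.13 in culture and −5.84, −5.33 and −5.43 in naive cells (2 of 3 above background), Fosl2 (5.85 ± 0.29), Atf3 (5.12 ± 0.84, with 1 of 3 naive arrays above background), Nfatc2 (1.74 ± 0.30), Fosl1, which passed without 1 array only where that was culture replicate 1 or naive replicate 1, and Ier3, which was at least 104-fold higher.

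Among genes of the tumour necrosis factor superfamily and of costimulation 10 of 22 rose and 5 fell. Without culture replicate 3, 14 rose, and without naive replicate 1, 3 fell. Tnfrsf4, the gene of OX40, lay at 4.90, 5.09 and 6.73 in culture, against 1.71, 1.52 and 2.01 in naive cells (3.83 ± 0.40), and Icos at 4.84, 4.47 and 3.98 in culture, against 1.16, 1.84 and 2.03 in naive cells (2.76 ± 0.31). Tnfrsf8, CD30, was below background on all naive arrays and at least 31.2-fold higher. Cd27, which naive T cells carry, lay at −0.59, −1.79 and −2.75 in culture, against 2.16, 2.43 and 2.23 in naive cells (−3.98 ± 0.55). Tnf itself lay at 0.80, 2.16 and −1.99 in culture and 0.26, −0.53 and −0.044 in naive cells and rose only without replicate 3 (1.59). Inhibitory receptors had 5 of 13 higher, such as Lag3 (4.67 ± 0.43), and 4 lower, such as Cd96 (−2.50 ± 0.74). Only 2 were lower without culture replicate 3, where Cd96 was at −1.49, and without naive replicate 1 or 2, where it did not pass (adjusted p = 0.0535 and 0.0519). Pdcd1, the gene of PD-1, lay at 0.90, 1.84 and −1.62 in culture and −1.42, −1.26 and −0.53 in naive cells and rose only without replicate 3 (2.44).

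Regulators of cell death of the BCL-2 family rose on both sides. Of 14 tested 11 rose and 2 fell (median 1.39). The protective gene Bcl2l1 rose by 1.64 ± 0.23 and Bcl2l2 by 2.99 ± 0.25. Of those that promote death, Bik lay at 0.026, 0.38 and 0.044 in culture, against −4.41, −4.35 and −4.69 in naive cells (4.63 ± 0.19), and Pmaip1, the gene of NOXA, Bcl2l11, the gene of BIM, and Bbc3, the gene of PUMA, rose by 3.93 ± 0.61, 2.17 ± 0.19 and 1.63 ± 0.31. Bid fell by 2.06 ± 0.20 and Bmf by 2.12 ± 0.35, while Mcl1 did not pass (−0.10 ± 0.26). Bcl2a1d has near-identical copies and its value (2.37 ± 0.67) is uncertain; it did not pass without culture replicate 1 or 2 (adjusted p = 0.062 and 0.0576). In the cytotoxic granule list 3 of 13 rose and 4 fell, with Gzmb at 3.1, 1.85 and 2.28 in culture against −3.04, −1.23 and −1.45 in naive cells, the granule proteoglycan gene Srgn up by 2.48 ± 0.33 and the perforin gene Prf1 down by 1.29 ± 0.31. Gzma lay at 5.41, −0.67 and 7.78 in culture and 2.12, 2.87 and 0.79 in naive cells and did not pass. Of clock genes 4 of 16 rose, Bhlhe40, Rora, Nr1d1 (1.90 ± 0.66, not past the threshold without culture replicate 1 or 2 or naive replicate 2 or 3) and Nfil3, the last at 2.87, 3.04 and 5.88 in culture against −1.26, −2.56 and −1.84 in naive cells, and 2 fell, Cry2 by 1.22 ± 0.30 and Per2, at least 2.25-fold, while the core pair Clock (0.079 ± 0.18) and Arntl (0.52 ± 0.27) did not pass.

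Across all genes well above background on all 6 arrays and without overlap, the largest rises after Il17f included genes not named so far. Adarb1, an enzyme that edits adenosines in RNA, rose by 7.77 ± 0.41, Ifitm1, a membrane protein known from interferon responses, by 7.64 ± 0.45, the epithelial keratin gene Krt18 by 7.53 ± 0.51, Il21 by 7.42 ± 0.48, Crispld2 by 7.41 ± 0.76 and Mgarp, a mitochondrial protein gene, by 7.35 ± 0.59. The inhibitory receptor genes Lilr4b (8.48 ± 0.33) and Lilrb4a (8.0 ± 0.32) are near-identical copies, so each value is uncertain. Out of background on all naive arrays came Foxf1 (at least 172-fold), a transcription factor known from mesenchyme, Stab1 (at least 143-fold), a scavenger receptor, Timd2 (at least 119-fold) and Cstdc4 (at least 82.3-fold), beside Stc2 and Ier3. These bounds are for 1 probe per gene, and other probes of Foxf1 and Timd2 differed by only 4.05 and 5.47 log2 units.

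Among the genes well above background on all 6 arrays, the largest falls after Dtx1, Ccr9 and Ms4a4b included Pdlim4, at −1.99, −1.69 and −3.24 in culture against 4.51, 3.63 and 4.41 in naive cells (−6.49 ± 0.41), Klf3, and Mpo, myeloperoxidase of granulocytes, at −4.99, −4.52 and −5.13 in culture against 1.07, 1.65 and 1.58 in naive cells (−6.31 ± 0.53). Jchain (−6.02 ± 1.22), a chain of secreted antibodies, Vipr1 (−6.02 ± 0.98), a neuropeptide receptor, Oas2, Oasl1 (−5.69 ± 0.45) and Tdrp (−5.44 ± 0.74) were also among them. Not above background on any cultured array were Chil5 (at least 90.6-fold lower), Ampd1 (at least 58.1-fold), an AMP deaminase of purine metabolism, the lectin receptor gene Klrg1 (at least 34.3-fold), Il17rb (at least 29.5-fold), a receptor of interleukin-25, Chdh (at least 19.2-fold) and Grm6 (at least 18.7-fold). Other probes differed by less, that of Il17rb by −2.57, of Chdh by −3.66 and of Vipr1 by −2.29 log2 units.

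What depends on culture replicate 3 was followed gene by gene. With it 1024 genes were called that were not called without it, and without it 928 others were. By comparison, leaving out any other array of the 6 lost 1140 to 1689 calls and added 115 to 515. Fewest calls were thus lost, and most added, without culture replicate 3. Leaving out naive replicate 3 lost 1689 calls and left 5961, the fewest of the 6. Among genes above background on at least 2 cultured arrays whose replicates 1 and 2 lay within 1 unit of each other, the one by which replicate 3 exceeded both most was Plppr3, at −5.46, −5.66 and 0.17 in culture and −4.22, −3.67 and −2.88 in naive cells. Gipr, a receptor of a gut hormone, lay at −2.12, −1.80 and 3.79 in culture and was below background in naive cells. Dntt, the polymerase that adds bases to receptor genes in the thymus, lay at −2.58, −3.54 and 2.51 in culture and 4.08, 3.77 and 3.19 in naive cells. For Plppr3 the other 2 cultures were below the naive arrays and replicate 3 above them, for Gipr all cultures were higher than the naive arrays, and for Dntt all were lower, replicate 3 the least. Il24, Pkp2, Gdpd2, Epha2, Dpf1, Apln and Car12 completed the 10 largest. Those by which it fell furthest below the others were Ms4a4b and, among others, the interferon-stimulated genes Ifit1bl1, Parp12, Ifi203 and Ifi206. Parp12 lay at −2.03, −2.01 and −7.39 in culture and −2.33, −0.94 and −2.08 in naive cells. B3galt5, Chst2, Nqo2, Dnah12 and Ifi203-ps completed the 10 on that side.

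Called only with replicate 3, with the largest differences, were Nsg2 (−4.68 ± 1.29; −3.59 without it), Stfa1, Gatm, Ddx3y, Eif2s3y, Pdgfa, Ctsg and Optc. Only Nsg2 and Stfa1 kept the call whichever other array was left out. Gatm also lost it without naive replicate 1, and Pdgfa, Ctsg and Optc without several other arrays. For Ddx3y and Eif2s3y the difference hardly moved, at 5.79 ± 1.92 and 7.07 ± 2.23 with it and 5.67 and 6.91 without it. Both missed the threshold without any 1 array but naive replicate 1, without which they were at 8.86 and 10.65. Called only without it were Smpdl3b (5.61; 3.58 ± 1.40 with it), Gap43, Lrrn2, Syn2, Fzd1, Vipr2, Klri2 and Serpinb1c. Counts per list changed by at most 4 genes in either direction when replicate 3 was left out. It changed the count of rises or falls most in 2 lists. These were the tumour necrosis factor superfamily with costimulation genes (14 higher without it, 10 with it) and the respiratory chain (4 higher without it, 8 with it).

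Markers of other cells are given as measured. Of 14 tested macrophage genes 7 rose and 1 fell (the fall passed without 1 array only where that was naive replicate 2), with a summed level (log2 of summed relative signals) of 4.92 to 5.67 in culture and 5.65 to 6.83 in naive cells. Cd14 lay at −0.87, 0.90 and −3.20 in culture and −5.51, −5.64 and −6.65 in naive cells, while the complement genes C1qa and C1qc were not above background on any cultured array. Of 10 neutrophil genes 3 rose and 1 fell (summed level 3.45 to 4.01 in culture and 2.30 to 2.83 in naive cells), and Ngp, Ltf and Retnlg were not above background on any of the 6 arrays. Of 7 dendritic cell genes 2 rose, Batf3 and Itgax, at a summed level of 6.30 to 7.02 in culture and 6.22 to 6.87 in naive cells, and Clec9a was above background on 1 of the 6 arrays. Of 8 B cell genes 4 fell (−1.28 to 1.25 in culture and 0.41 to 1.21 in naive cells), for example Ms4a1 (−1.73 ± 0.46; adjusted p = 0.0527 without naive replicate 3). Of 7 genes of CD8 and natural killer cells 2 fell (−1.33 to 0.91 in culture and 1.40 to 1.94 in naive cells), Cd8b1 by 2.65 ± 0.32 and Cd8a, at least 1.72-fold lower. Red cell and platelet genes had 1 higher and 1 lower of 5 (−1.47 to −0.71 in culture and −2.58 to 1.5 in naive cells). Without naive replicate 1, 3 of them were lower, and without any other array 0. The T cell core list had 2 higher and 1 lower of 9, at 9.06 to 9.32 in culture and 8.93 to 9.21 in naive cells. Only 1 was higher without culture replicate 1 or 2 or naive replicate 1, and 0 were lower without naive replicate 1. The part of such cells in the falls of Mpo, Jchain and Cd8b1 or in the rises of Cxcr2, Ccr1 and Itgax was not tested.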

How the data were processed

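Total RNA of 12 samples (4 groups of 3) was measured on 1-colour (Cy3) arrays, 1 per sample. The deposited intensity values per spot came from Agilent software (Feature Extraction 10.7.3.1, protocol GE1_107_Sep09, build mm9), per the file headers. They were corrected for local background and trend inside an array and not scaled across arrays. A deposited matrix gives further intensity values, made comparable between arrays by a method not given in the sources used here.

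Control spots and spots marked as outliers were left out and repeated spots averaged, which left 39405 of 39429 probes. Probes took a current symbol by RefSeq accession (27324), symbol (3518) or synonym (551), and 8036 kept the name in the file. The log2 values computed from the deposited processed signals were set relative to the array's 75th percentile. The probe with the highest mean stood for a gene, and 18629 of 30100 genes, those detected above background throughout 1 or more groups of 3, were fitted over 12 arrays with limma 3.58.1 in R 4.3.3 (degrees of freedom 8 residual, 2.46 prior). P-values are two-sided, and adjusted ones are Benjamini-Hochberg values over all genes, called under 0.05. "At least N-fold" sets the bright group's mean against the dim group's raised to the lowest signal well above background on each array, and is given where a gene was above background on no array of the dim group. It holds for the probe that stands for the gene, and another probe of the gene can differ by less. Tables and plots used Python 3.11.15, pandas 2.3.3, numpy 2.4.6 and matplotlib 3.10.9. On simulated data for cultured Th17 against naive cells, with 200 of 18629 genes changed, the fit recovered 17% of genes changed by 1 log2 unit and 77% of those changed by 2, with 5 false calls. In that simulation each gene had the same spread on all arrays and no array stood apart. In the data 40.4% of genes were called, so these shares do not give the recovery or error of this comparison.

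On the 6 arrays compared 57.1% to 64.9% of probes were well above background, which, with 3 arrays per group, limits precision. Named genes were the 4 markers, per list the largest changes each way, the largest that did not pass and those whose call turned on culture replicate 3, the largest changes and bounds over all genes, and the genes standing furthest out in culture replicate 3. Genes added for context, such as members that complete a pathway, were chosen with values seen. A few further genes that qualified are left out of the text. The members, lists and tests were chosen with earlier results of these data known. Alternatives covered scaling, background, filters, probe choice, weights, thresholds and each array left out. Coordinates of promoters are those of RefSeq's GRCm38.p6 table, and the 2 builds were not mixed.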

Additional observations from a re-analysis of the deposited data

How the results depend on the processing

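Over 18 alternatives the number of genes called stayed between 5501 (only the 6 arrays compared) and 9122 (array weights, which gave culture replicate 3 a weight of 0.156), except at an adjusted p under 0.01, where 4745 were called, 2507 higher and 2238 lower, against 7535 in the report, 3568 higher and 3967 lower. Leaving out 1 array gave 5961 to 7439 calls, 2968 to 3569 higher and 2970 to 3870 lower. Median scaling gave 3287 higher and 3103 lower, quantile normalization 3584 and 4247, and the authors' deposited matrix 3585 and 4233. With replicate number as a replicate block, which here is also the slide, 7244 genes were called, 3437 higher and 3807 lower. Samples of the same number did not deviate together (r of −0.0077 to 0.047 over 3 pairs, and −0.141 to 0.112 over 6 pairs of unlike number), so the numbers were not taken as a pairing. Of 365 genes named here, 285 were called, and 228 of these kept call and direction in all 18 alternatives. Hk1 alone turned, to 0.59 with the mean over all its probes (adjusted p = 0.0284), an alternative that adds its other probes. Each group had a fixed position on the slides, so position and group cannot be told apart. Where a gene was near background its level is bounded by that background.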
